A study of Mus musculus with 6 samples.

Results

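Fibroblast growth factor (FGF) signaling was examined in cancer-associated fibroblasts (CAFs) through 10 genes, chosen by name: the ligands Fgf2, Fgf7, Fgf9, Fgf10 and Fgf18 and the receptors Fgfr1, Fgfr2, Fgfr3, Fgfr4 and Fgfrl1. They are 5 ligand and 5 receptor genes of the 27179 genes in the count table. Of these 10 genes, 9 had enough counts to be among the 14855 genes tested, and Fgfr4 did not. The rule that lists them uses names and no measured value, although earlier results of these data were known when it was written. Bulk RNA-seq had been performed on GFP+ CAFs from 3 raGFP-Wnt1 mammary tumors, each sorted by FACS into a CD34- and a CD34+ fraction, which gave 3 libraries per group. All libraries shared 1 genotype, a cross of the MMTV-Wnt1 transgenic strain (FVB/NJ) with heterozygous Pdgfra H2B-GFP reporter mice (C57BL/6), and no treatment is named for either group. The MMTV promoter drives Wnt1 in the mammary epithelium, and the reporter marks cells with an active Pdgfra gene, so the sort holds Pdgfra-expressing stroma of 1 tumor model. The age of the mice was not given for these tumors in the sources used here, nor whether each tumor came from a different mouse.

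FGF ligands are mostly secreted proteins that bind heparan sulfate and activate receptor tyrosine kinases, which signal through adaptor proteins to the ERK cascade. In the mammary gland, stromal fibroblasts make Fgf7 and Fgf10, whose receptor is the epithelial splice form of Fgfr2, so that these ligands pass from stroma to epithelium. Other ligands, such as Fgf2, Fgf9 and Fgf18, act mainly on the mesenchymal splice forms of the receptors and can signal among fibroblasts themselves.

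The libraries held between 16238059 and 86609267 counts and had counts for between 14314 and 19220 genes. The CD34- library of tumor 3 had the fewest genes and stood apart, with correlations of log2 CPM (counts scaled to a common library size of 1e6) of 0.837 to 0.883 to the other libraries, against 0.882 to 0.961 among the other 5. The fibroblast markers Dcn, Lum, Pdgfra, Col1a2 and Igfbp5 were present in all libraries, with a summed level of 23882 to 39349 CPM in CD34- and 25524 to 33566 CPM in CD34+ libraries, most of it Col1a2. Apart from Col1a2 these markers were lower in the CD34- library of each tumor, and with the tumor as a block in limma-voom Dcn (log2 fold change -1.12, adjusted p = 0.00154) and Lum (-0.73, adjusted p = 0.0140) passed; their part in the results was not tested. Cd34 itself was lower in the CD34- library of every tumor, with a log2 fold change of -3.63 (limma-voom, adjusted p = 0.0414). Summed levels of 7 epithelial markers were 55.5 to 155 CPM in CD34- and 18.3 to 140 CPM in CD34+ libraries, and 2 pericyte markers summed to 41.4 to 49.6 CPM and 4.23 to 17.6 CPM. Sums of Schwann cell markers (14.8 to 22.0 and 7.19 to 12.1 CPM), muscle markers (2.97 to 13.3 and 1.52 to 1.86 CPM, with Myf5 at 0) and keratinocyte markers (1.04 to 3.84 and 7.10 to 10.8 CPM) were small but did not overlap between CD34- and CD34+ libraries, and their part in the results was not tested. With the block, limma-voom called the pericyte marker Mcam (log2 fold change 2.15, adjusted p = 0.00251) and the muscle marker Des (2.32, adjusted p = 0.0362). The keratinocyte marker Krtdap (-6.58, adjusted p = 0.0215) passed too. The pericyte marker Rgs5, the muscle marker Acta1, the keratinocyte marker Krt10 and the Schwann cell markers did not. In bulk samples, fewer cells of a type and less RNA per cell cannot be told apart.

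Of the members, Fgf7 showed the clearest difference. Its level in CD34- CAFs was below that in CD34+ CAFs in all 3 tumors. Fgf10, the other ligand of the epithelial Fgfr2 form, was also lower in CD34- CAFs of every tumor, but its difference did not pass the test of limma-voom with or without a term for the tumor. Fgfr1 was by far the most abundant member and was near-equal between the groups, and Fgfr2 was somewhat higher in CD34- CAFs without passing the test.

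To set the members side by side, levels were expressed per kilobase of gene length (RPKM, which is CPM per kilobase). Fgfr1 was at 74.2 ± 6.64 RPKM (SD over 6 libraries), from 66.0 to 83.6, and in every library it lay above each of the other 9 genes. Fgf7 followed at 20.4 ± 10.4 RPKM, Fgf18 at 13.5 ± 5.74 and Fgfrl1 at 8.26 ± 3.39. Below them were Fgf2 at 5.53 ± 2.23 RPKM, Fgfr2 at 4.05 ± 0.921 and Fgf9 at 1.89 ± 1.21. The lowest levels were those of Fgf10 at 0.992 ± 0.642 RPKM, Fgfr3 at 0.621 ± 0.313 and Fgfr4 at 0.0633 ± 0.0661. Only Fgfr1 and Fgf7 were neighbors in this order without overlapping ranges. For Fgfr2 and Fgf9 the ranges overlapped, although Fgfr2 was above Fgf9 in 6 of 6 libraries. The other neighbors changed places in at least 1 library, so that, for example, Fgf2 was above Fgfr2 in 3 of 6 libraries and Fgf10 above Fgfr3 in 3 of 6. The counted length of Fgf2 was 695 bases, against 6782 bases of exon in the GENCODE annotation of the gene, so its level per length rests on a short part of the transcript.

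**Figure D1:**
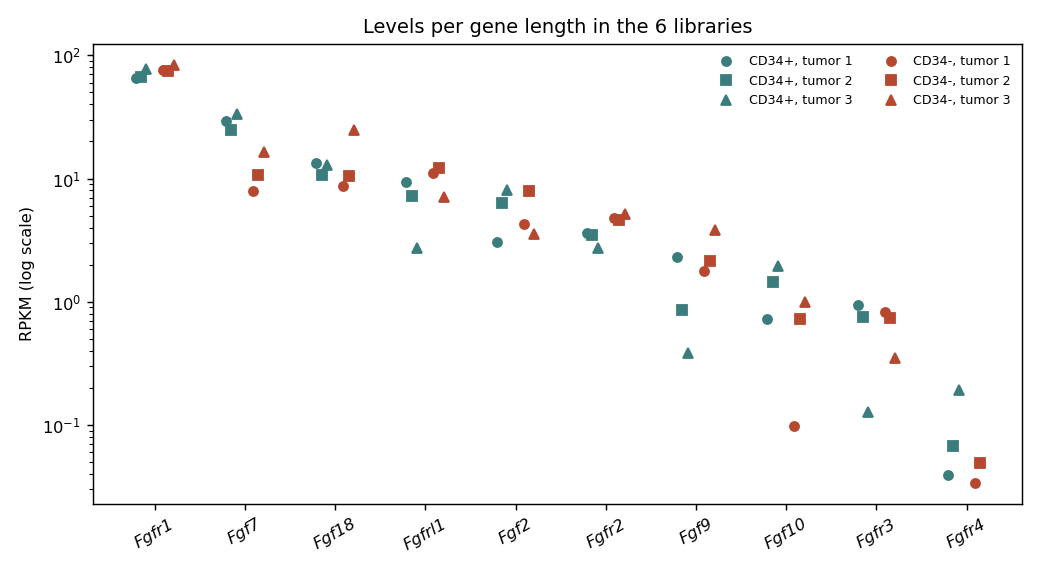
Levels of the 10 genes in RPKM on a log axis, ordered by their mean over 6 libraries, with 1 point per library (color, CD34 fraction; shape, tumor; means and errors are given in the text). Fgfr1 lies above all other genes, between 66.0 and 83.6 RPKM, and the Fgfr4 point of the CD34- library of tumor 3 is not drawn because its value is 0.

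Fgf7 (gene 14178, chromosome 2, 126034658 to 126091185 of GRCm38, protein-coding) encodes keratinocyte growth factor, a mitogen made by mesenchymal cells for epithelia. It was at 21.0, 28.6 and 43.7 CPM in the CD34- libraries of tumors 1, 2 and 3 and at 78.5, 66.3 and 89.3 CPM in their CD34+ libraries. The groups did not overlap: the highest CD34- value, from tumor 3, was below the lowest CD34+ value, from tumor 2. Mean levels were 31.1 ± 11.5 and 78.0 ± 11.5 CPM (SD, n = 3), and the fitted level was 2.66-fold lower in CD34- CAFs. The log2 fold change was -1.41 ± 0.27 (SE; 95% confidence interval -2.03 to -0.79). In limma-voom without a term for the tumor, this difference did not pass (adjusted p = 0.0830). With the tumor as a block, which compares the 2 fractions of the same tumor, it did: the log2 fold change was -1.34 ± 0.18 and the adjusted p was 0.00322. Within tumors 1, 2 and 3 the log2 ratios were -1.90, -1.21 and -1.03. Over the alternatives, adjusted p-values ran from 0.00142 to 0.312 in 15 without a tumor term, of which 2 passed, and from 1.58e-07 to 0.0244 in 8 with one, of which 8 passed.

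Fgf10 (gene 14165, chromosome 13, 118714699 to 118792573, protein-coding) encodes a close relative of Fgf7 that is required for most of the mammary placodes to form in the embryo. Levels were 0.445, 3.32 and 4.56 CPM in CD34- and 3.34, 6.65 and 8.89 CPM in CD34+ CAFs of tumors 1, 2 and 3. The groups overlapped across tumors, yet in each tumor the CD34- library was the lower one, with log2 ratios of -2.89, -0.998 and -0.96. The log2 fold change was -2.01 ± 0.78 (95% confidence interval -3.80 to -0.23, adjusted p = 0.302) in limma-voom and -1.15 ± 0.43 (-2.11 to -0.18, adjusted p = 0.143) with the block. The CD34- library of tumor 1, with 25 counts of Fgf10, decided much of the size: without it the log2 fold change was -0.75. DESeq2 with the block gave the only adjusted p under the threshold for Fgf10 (0.0428, against a range of 0.0428 to 0.681 over all alternatives). An antisense gene, Gm16263, overlaps 123 bases of Fgf10 exon, and reads of both strands cannot be told apart where counting ignored strand, which the sources used here do not state.

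Because Fgf7 and Fgf10 were the members that were lower in CD34- CAFs of all 3 tumors, the 250 bases before their annotated starts are shown, from RefSeq on GRCm38.p6, plus strand. Capitals mark the only matches to the motifs looked for on both strands, none of which contains another: the TATA box (TATAAA), the CCAAT box (CCAAT), the GC box (GGGCGG), the AP-1 site (TGACTCA), the CRE (TGACGTCA), the E-box (CACGTG) and the TCF/LEF site (ATCAAAG).
Fgf7, chr2:126034408-126034657: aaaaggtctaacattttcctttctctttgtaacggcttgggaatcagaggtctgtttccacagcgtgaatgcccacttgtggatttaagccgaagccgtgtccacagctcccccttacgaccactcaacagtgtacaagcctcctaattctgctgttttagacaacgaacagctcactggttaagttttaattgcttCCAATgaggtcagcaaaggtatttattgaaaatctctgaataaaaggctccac
Fgf10, chr13:118714449-118714698: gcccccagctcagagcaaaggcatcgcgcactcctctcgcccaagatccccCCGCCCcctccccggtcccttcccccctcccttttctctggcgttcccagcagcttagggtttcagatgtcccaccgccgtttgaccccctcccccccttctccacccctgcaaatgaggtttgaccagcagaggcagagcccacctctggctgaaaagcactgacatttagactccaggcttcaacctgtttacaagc
The Fgf7 window held 1 CCAAT box, 53 bases before the start, and was 43.6% G and C. The Fgf10 window was 61.2% G and C and held 1 GC box (GGGCGG, here on the minus strand and printed as its reverse complement), 199 bases before the start. Both motifs are common, the CCAAT box in 33.8% and the GC box in 32.7% of 32851 windows of this length, whose median G and C content was 52.4%. The windows thus shared none of the motifs searched, and the files hold no binding or chromatin data on them.

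Fgf9 (gene 14180, chromosome 14, 58070671 to 58112854, protein-coding) encodes a ligand of the mesenchymal receptor forms. It was at 7.40, 8.79 and 15.9 CPM in CD34- and at 9.59, 3.57 and 1.59 CPM in CD34+ CAFs of tumors 1, 2 and 3. The order of the fractions differed between tumors: the CD34+ library was higher in tumor 1 and the CD34- library in tumors 2 and 3, with log2 ratios of -0.38, 1.30 and 3.31. Its log2 fold change was 1.52 ± 0.52 (95% confidence interval 0.33 to 2.70) and did not pass limma-voom (adjusted p = 0.246, and 0.160 with the block).

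Fgf18 (gene 14172, chromosome 11, 33116970 to 33147400, minus strand, protein-coding) encodes a ligand known for its part in bone and cartilage growth. Levels were 9.45, 11.4 and 26.8 CPM in CD34- and 14.6, 11.6 and 13.9 CPM in CD34+ CAFs. The CD34- library of tumor 3 held the highest value and the other 5 libraries lay close together. The log2 fold change was 0.10 ± 0.39 (95% confidence interval -0.80 to 0.99, limma-voom adjusted p = 0.935), and without the CD34- library of tumor 3 it was -0.31.

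Fgf2 (gene 14173, chromosome 3, 37348477 to 37410106, protein-coding) encodes basic FGF, a broad mitogen that leaves cells without a signal peptide. It was at 2.95, 5.56 and 2.45 CPM in CD34- and at 2.10, 4.41 and 5.57 CPM in CD34+ CAFs. The groups overlapped fully, and tumor 3 went in the direction opposite to that of tumors 1 and 2. The log2 fold change was -0.29 ± 0.47 (95% confidence interval -1.36 to 0.79, limma-voom adjusted p = 0.818) and turned to 0.10 without tumor 3. Nudt6, on the opposite strand, overlaps 640 bases of Fgf2 exon and had 2569 counts against 1075 of Fgf2, so that part of the Fgf2 counts may belong to it if strand was not used.

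The makeup of the ligand RNA was also compared, as the share of each gene in the summed RPKM of the 5 ligands. Fgf7 made up 33.1 to 34.6% of it in CD34- CAFs and 56.1 to 60.1% in CD34+ CAFs. The means were 33.7% ± 0.812 and 58.5% ± 2.06 (SD, n = 3), and the groups did not overlap. An exact two-sided permutation test of this share gave p = 0.1, the smallest p that 3 against 3 libraries allow. Groups that do not overlap always give this p, and the test left out the pairing by tumor, so it adds nothing to these values. Fgf9 made up 6.63 to 7.88% in CD34- and 0.678 to 4.74% in CD34+ CAFs, and Fgf18 32.8 to 49.9% and 22.6 to 27.5%. The shares rest on the counted gene lengths, and since they add up within a library, a lower share of one ligand raises those of the others. The summed level of the 5 ligands was 22.7, 32.0 and 49.4 RPKM in CD34- and 48.9, 44.2 and 56.5 RPKM in CD34+ CAFs of tumors 1, 2 and 3. In each tumor it was lower in the CD34- library, and the groups overlapped.

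**Figure D2:**
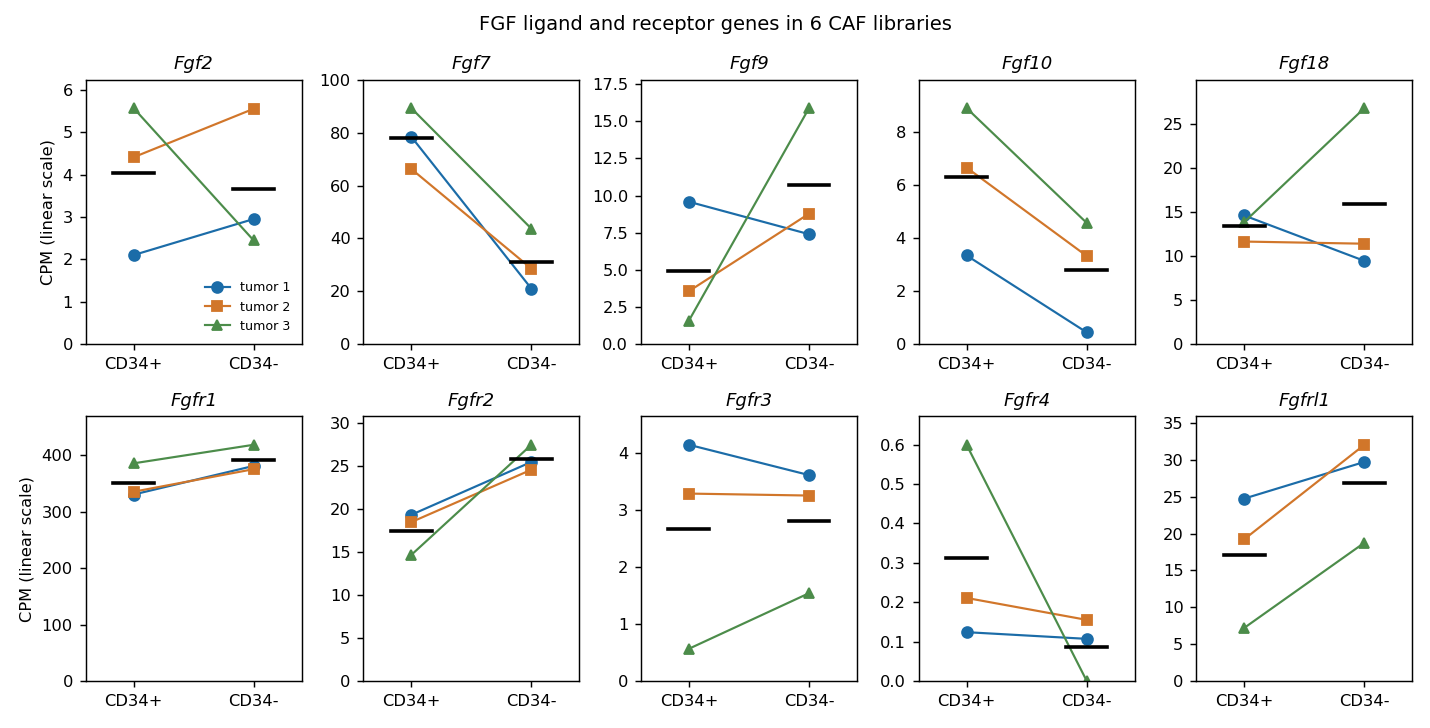
Level of each gene in CPM (linear axis from 0) in the CD34+ and CD34- libraries of tumors 1, 2 and 3; lines join the fractions of 1 tumor and black bars are group means (n = 3). Fgf7 lies between 66.3 and 89.3 CPM in CD34+ and between 21.0 and 43.7 CPM in CD34- CAFs, Fgfr2 is higher in CD34- CAFs on all 3 lines, and the lines of Fgf2, Fgf9, Fgf18 and Fgfr3 go both ways.

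Among the receptors, Fgfr1 (gene 14182, chromosome 8, 25518759 to 25575718, protein-coding), the main FGF receptor of mesenchymal cells, was at 381, 376 and 419 CPM in CD34- and at 331, 336 and 386 CPM in CD34+ CAFs. It was slightly higher in the CD34- library of each tumor, with log2 ratios of 0.21, 0.16 and 0.12. The groups overlapped, since the CD34+ library of tumor 3 exceeded the CD34- libraries of tumors 1 and 2. Its log2 fold change was 0.16 ± 0.17 (limma-voom adjusted p = 0.693), and the 95% confidence interval with the block, -0.11 to 0.43, leaves room for a small difference either way. Fgfr1 made up 81.1 to 87.0% of the receptor RPKM in CD34- and 82.6 to 93.0% in CD34+ CAFs.

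Fgfr2 (gene 14183, chromosome 7, 130162451 to 130266808, minus strand, protein-coding) encodes the receptor whose epithelial form binds Fgf7 and Fgf10. It was at 25.4, 24.5 and 27.4 CPM in CD34- and at 19.3, 18.5 and 14.6 CPM in CD34+ CAFs. All CD34- libraries lay above all CD34+ libraries. Means were 25.8 ± 1.48 and 17.5 ± 2.49 CPM (SD, n = 3), and the log2 fold change of 0.56 ± 0.20 (95% confidence interval 0.11 to 1.02) did not pass limma-voom (adjusted p = 0.260, and 0.130 with the block). Counts per gene do not separate the epithelial from the mesenchymal splice form, so which form these counts come from is not known. Ctbp2, on the same strand, overlaps 314 bases of annotated Fgfr2 exon and had 8936 counts against 5841 of Fgfr2. Strand cannot separate reads of those bases, and how they were counted is not stated in the sources used here.

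Fgfrl1 (gene 116701, chromosome 5, 108694229 to 108706950, protein-coding) encodes a receptor that binds FGF ligands but lacks the tyrosine kinase domain. Its levels were 29.7, 32.0 and 18.8 CPM in CD34- and 24.7, 19.2 and 7.19 CPM in CD34+ CAFs of tumors 1, 2 and 3. The CD34- library was higher in each tumor, and tumor 3 was low in both fractions. The log2 fold change was 0.80 ± 0.40 (95% confidence interval -0.12 to 1.71, adjusted p = 0.408) in limma-voom and 0.72 ± 0.22 (0.23 to 1.22, adjusted p = 0.0799) with the block. Without the CD34+ library of tumor 3 the log2 fold change was 0.36.

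Fgfr3 (gene 14184, chromosome 5, 33721724 to 33737068, protein-coding) encodes a receptor for Fgf9 and Fgf18 that is best known for restraining growth of cartilage. It was at 3.61, 3.25 and 1.54 CPM in CD34- and at 4.15, 3.29 and 0.564 CPM in CD34+ CAFs. As for Fgfrl1, both libraries of tumor 3 were the lowest, and the fractions of tumors 1 and 2 were nearly level. Fitted over all libraries, the log2 fold change was 0.27 ± 0.71 with a 95% confidence interval of -1.35 to 1.88 (limma-voom adjusted p = 0.895), and it changed sign, to -0.31, without the CD34+ library of tumor 3. A predicted locus on the opposite strand, G630022F23Rik, overlaps 998 bases of Fgfr3 exon.

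Tumor 3, which was low in Fgfr3 and Fgfrl1, was also lowest within each fraction in 6 of the 7 epithelial markers (Epcam, Cdh1, Krt5, Krt8, Krt14 and Krt18), and Itga6 was not low there. The summed level of these 7 markers was 155, 132 and 55.5 CPM in CD34- and 140, 85.4 and 18.3 CPM in CD34+ CAFs of tumors 1, 2 and 3. It was lowest in tumor 3 and, in each tumor, lower in the CD34+ library. None of the 7 markers was at 0 in all libraries, 0 of the 7 passed limma-voom with or without the block, and Epcam was at 1.92 and 0.564 CPM in the CD34- and CD34+ libraries of tumor 3 and between 13.6 and 23.3 CPM in the others. Fgfr2 was, like the summed markers, higher in the CD34- library of each tumor and lowest in the CD34+ library of tumor 3, while its highest level was in the CD34- library of tumor 3. The part of epithelial cells in the levels of Fgfr2, Fgfr3 and Fgfrl1 was not tested. Pericyte markers also differed: Mcam was at 34.6 to 45.6 CPM in CD34- and 3.98 to 16.4 CPM in CD34+ CAFs, and the part of pericytes was not tested.

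Fgfr4 (gene 14186, chromosome 13, 55152818 to 55168759, protein-coding), a receptor used mainly in liver and muscle, was close to the limit of detection. It had 6, 7 and 0 counts in CD34- and 2, 18 and 17 counts in CD34+ CAFs of tumors 1, 2 and 3, and was left out of the test by the filter on low counts. For the library with 0 counts, a floor of 3 counts corresponds to 0.0825 CPM, which covers counting error alone. A difference between the fractions was not detectable for Fgfr4 at this depth.

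Of the 9 members tested, 0 passed limma-voom without the block, where 0.121% of the 14855 genes passed, and 4 (Fgf7, Fgf9, Fgf10 and Fgfr2) had an unadjusted p under 0.05, where 14.3% of all genes did. Without the block, edgeR called 0 members (0.0606% of all genes) and DESeq2 called 1, Fgf7 (4.7% of all genes). With the block 1 of 9 passed limma-voom, Fgf7, against 8.57% of all genes, 4.25% in that direction, and 5 had an unadjusted p under 0.05, against 23.3%. Fgf7 alone was also called by edgeR with the block (3.87% of all genes) and with the tumor as a random effect (4.73%), and DESeq2 with the block called 2, Fgf7 and Fgf10 (11.7%). The CD34- groups lay wholly above the CD34+ group for 1 member (Fgfr2), against 10.4% of all genes, and wholly below for 1 (Fgf7), against 10.1%. In all 3 tumors, 3 members were higher in CD34- CAFs (Fgfr1, Fgfr2 and Fgfrl1; 22.8% of all genes) and 2 were lower (Fgf7 and Fgf10; 23.4% of all genes), and 4 went both ways. The median log2 fold change of the 9 members was 0.16, and that of all genes tested was -0.03. The count of adjusted calls was near the share over all genes, while the count at an unadjusted p under 0.05 was above it, a difference that was not tested.

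**Figure D3:**
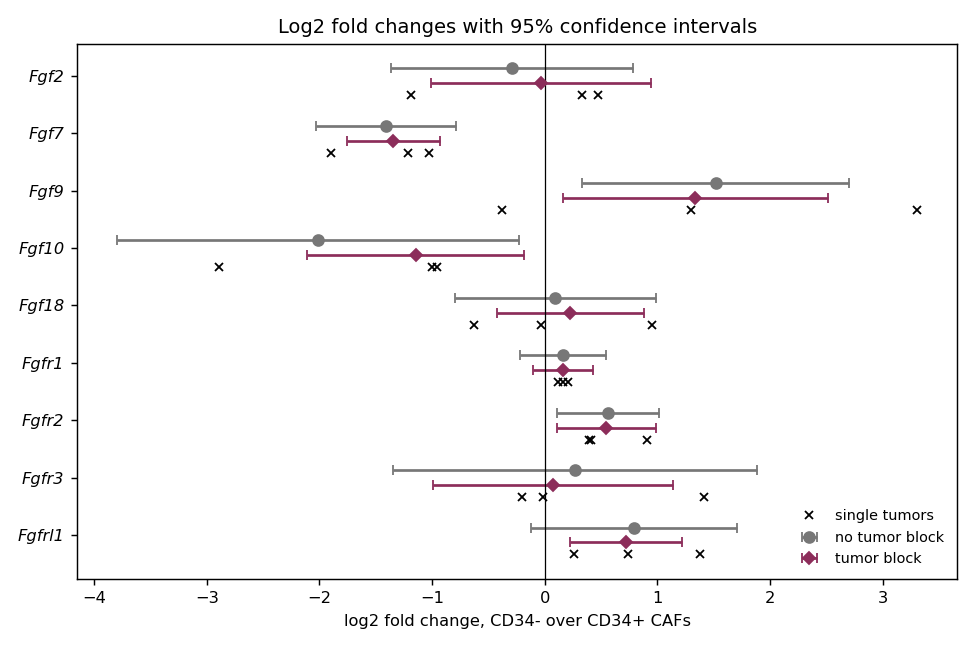
Log2 fold change of the 9 tested members, CD34- over CD34+ CAFs, with 95% confidence intervals, without (circles) and with (diamonds) the tumor as a block; crosses are the log2 ratios within single tumors. For Fgf7 both intervals and all 3 tumors lie at or below -0.79, and for Fgfr1 the intervals are narrow and include 0.

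The genes whose pattern over the 6 libraries was most like that of Fgf7, the ligand with the largest change at a mean log2 CPM of at least 3, were a gene without a symbol (gene 100039175; Pearson r = 0.992), Rbm34 (0.990) and the pseudogene Rpl5-ps2 (0.985), out of 9015 genes compared. For Fgfrl1, the receptor picked by the same rule, they were Trim59 (0.997), Rgs16 (0.993) and Abtb2 (0.989). These values describe 6 libraries that share tumors, and no p is given.

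Beyond the members, 68 genes of the pathway were listed by role, and 52 were tested. With the block, 13 of the 52 passed, or 25%, against 8.57% of all genes, 9 of them higher (4.32% of all genes) and 4 lower (4.25%) in CD34- CAFs. Without the block, 0 of 52 passed limma-voom (0.121% of all genes) and edgeR (0.0606%), and 5 passed DESeq2 (4.7%). An unadjusted limma-voom p under 0.05 without the block was found for 18, against 14.3% of all genes. Sdc2, Hspg2, Dusp6 and Spry4, which passed limma-voom with the block, did not pass edgeR with it. There 9 of the 52 were called, against 3.87% of all genes. All adjusted p-values in the following paragraphs are from limma-voom.

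Of 17 other FGF family genes, 7 were tested and none passed limma-voom with or without the block. Among the 17, Fgf11, Fgf12, Fgf13 and Fgf14 encode intracellular members rather than secreted ligands. With the block, 5 had an unadjusted p under 0.05 (23.3% of all genes). DESeq2 with the block, which called 11.7% of all genes, called 3, Fgf16 (adjusted p = 0.00183), Fgf21 (0.0461) and Fgf23 (0.0476). Fgf1, acidic FGF, was at 10.8, 8.30 and 11.1 CPM in CD34- and at 30.7, 7.97 and 28.4 CPM in CD34+ CAFs. Its CD34- level was the lower one in tumors 1 and 3 but not in tumor 2, and the adjusted p was 0.0815 with the block. Fgf16 was at 1.99, 0.266 and 0 CPM (0 counts, which allows up to 0.0825 CPM) in CD34- and at 11.9, 1.28 and 5.01 CPM in CD34+ CAFs, lower in the CD34- library of each tumor (adjusted p = 0.0734 with the block). Fgf14, which encodes an intracellular member that does not signal through FGF receptors, and Fgf21, an endocrine ligand that needs the co-receptor Klb, had log2 fold changes of 0.81 and 1.11 with the block without passing limma-voom (adjusted p = 0.208 and 0.114). Fgf21 was higher in the CD34- library of each tumor, and Fgf14 in tumors 2 and 3 only. Fgf23, another endocrine ligand, named after its values were seen, had 16, 6 and 3 counts in CD34- and 6, 155 and 85 counts in CD34+ CAFs and a log2 fold change of -3.26 ± 1.25 with the block (limma-voom adjusted p = 0.154). Relative to library size it was lower in the CD34- library of each tumor, and the groups did not overlap. Fgf3, Fgf4, Fgf6, Fgf8 and Fgf15 had 0 counts in every library, which over 269912299 counts in all allows up to 0.0112 CPM. Fgf3 and Fgf8 are known as genes that mouse mammary tumor virus activates by insertion in mammary tumors.

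Of 7 co-receptors and binding proteins, 3 were tested. Flrt2, a leucine-rich repeat membrane protein that binds FGF receptors, was at 92.6, 65.5 and 110 CPM in CD34- and at 132, 157 and 252 CPM in CD34+ CAFs. It fell in CD34- CAFs in the fit with the block, with a log2 fold change of -0.996 ± 0.16 (adjusted p = 0.00710, and 0.179 without the block), and the groups did not overlap. Its relative Flrt3 was also below in each tumor, at 2.48 to 3.41 against 4.02 to 8.60 CPM, without passing (adjusted p = 0.137 with the block). Fgfbp3, a carrier that frees FGFs from the matrix, had a log2 fold change of -0.38 ± 0.74 with the block without passing (-1.33 ± 1.16 without the block, with 2 counts in the CD34- library of tumor 3), and Klb had at most 18 counts in any library.

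Heparan sulfate proteoglycans bind FGFs at the cell surface and in the matrix and steady their contact with receptors. Of 11 listed, 10 were tested, and with the block 4 were higher (4.32% of all genes) and 2 lower (4.25%) in CD34- CAFs. The median log2 fold change of the 10 was 0.46. Gpc3, a glypican, fell the most, from 522, 777 and 385 CPM in CD34+ to 184, 243 and 106 CPM in CD34- CAFs of tumors 1, 2 and 3. All 3 tumors were alike in this, with log2 ratios of -1.51, -1.68 and -1.86 and an adjusted p of 0.000237 with the block (0.0967 without). Sdc2 fell by 0.59 on the log2 scale (adjusted p = 0.0353 with the block). In the other direction, the block fit gave log2 fold changes of 1.19 for Gpc1 (adjusted p = 0.00540), 0.97 for Sdc3 (0.00701), 0.80 for Sdc1 (0.00720) and 0.54 for the basement membrane proteoglycan perlecan, Hspg2 (0.0453). Hspg2 was the most abundant of them, at 1894 to 2173 CPM in CD34- and 1238 to 1530 CPM in CD34+ CAFs. Gpc6 (0.39, adjusted p = 0.0998) did not pass.

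Of the 16 adaptor and ERK cascade genes, all tested, none passed limma-voom with or without the block. With the block, 5 had an unadjusted p under 0.05 (23.3% of all genes). The CD34- library was higher in all 3 tumors for 8 of them (22.8% of all genes) and lower for 0 (23.4%), and the groups did not overlap for 5, all higher in CD34- CAFs (10.4%). The median log2 fold change of the list was 0.24 without the block. Ptpn11, a phosphatase that carries the receptor signal to ERK, had a log2 fold change of 0.28 without the block (95% confidence interval -0.09 to 0.65). The adaptor Shc1 had one of 0.25 (-0.12 to 0.62). With the block, the values were 0.27 (-0.01 to 0.55) for Ptpn11 and 0.25 (-0.05 to 0.54) for Shc1. All these intervals include 0 and admit differences of moderate size.

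Of the 17 feedback and target genes, which are switched on by ERK signaling and in part restrain it, 16 were tested. With the block 5 were higher (4.32% of all genes) and 1 was lower (4.25%) in CD34- CAFs. Dusp4 and Dusp6 encode phosphatases that act on ERK. Dusp4 was at 55.9, 57.9 and 35.2 CPM in CD34- and at 16.0, 22.6 and 5.92 CPM in CD34+ CAFs, a log2 fold change of 1.66 ± 0.23 with the block (adjusted p = 0.00360). Dusp6 was at 113, 125 and 139 CPM against 79.6, 73.4 and 51.5 CPM, a log2 fold change of 0.91 ± 0.18 (adjusted p = 0.0154). For both genes every CD34- library was above every CD34+ library.

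The Sprouty genes, whose products are feedback inhibitors of receptor tyrosine kinases, did not move together. Spry1 was at 156, 123 and 116 CPM in CD34- and 103, 60.2 and 44.7 CPM in CD34+ CAFs, a log2 fold change of 1.00 ± 0.16 with the block (adjusted p = 0.00681). Spry4 rose by 0.69 (adjusted p = 0.0238). Spry2 went the other way, at 87.3, 51.2 and 41.5 CPM in CD34- and 145, 115 and 119 CPM in CD34+ CAFs, a log2 fold change of -1.12 ± 0.17 (adjusted p = 0.00444). Il17rd, which encodes Sef, a membrane inhibitor of FGF receptor signaling, rose by 0.77 (adjusted p = 0.0125). The immediate early genes Fos and Egr1, which many stimuli and cell dissociation switch on, were abundant and level between the fractions. Their log2 fold changes were 0.02 and -0.15 with the block (adjusted p = 0.939 and 0.552).

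**Figure D4:**
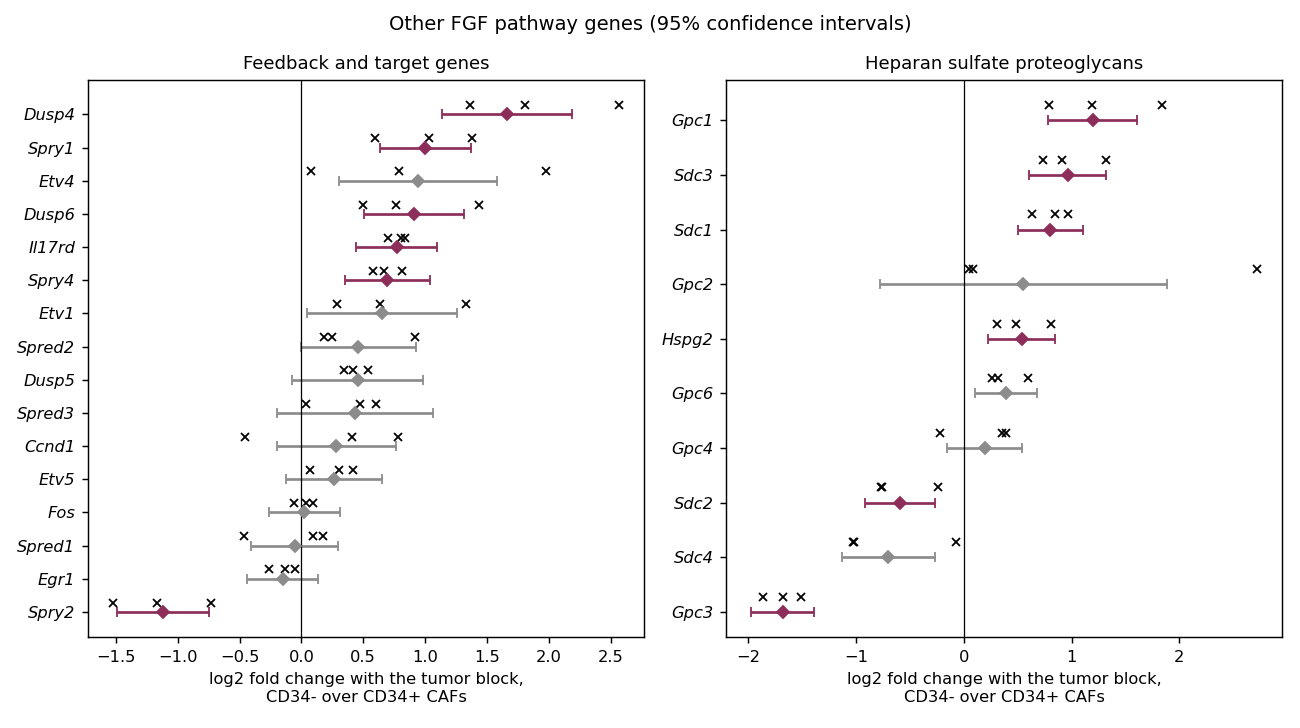
Log2 fold change with the tumor as a block, CD34- over CD34+ CAFs, with 95% confidence intervals, of the tested feedback and target genes (left) and heparan sulfate proteoglycans (right); colored diamonds passed an adjusted p of 0.05, gray ones did not, and crosses are single tumors. On the left Dusp4 is highest and Spry2 lowest, and on the right Gpc3 is lowest with its 3 tumors between -1.86 and -1.51.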

How the data were processed

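RNA-seq of CD34- and CD34+ CAFs from 3 tumors was analyzed, with groups and tumor numbers taken from the sample labels. The authors mapped reads to GRCm38 (mm10) with Rsubread, using featureCounts per the submitters' notes to assign them to NCBI genes; the deposited values are raw counts for 27179 genes, and strand setting and handling of multi-mapped reads were not given in the sources used here. Library totals of 16238059 to 86609267 counts limit the precision of low genes such as Fgfr4.

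Genes were filtered with filterByExpr (minimum count 10), normalized by TMM and compared with limma-voom (R 4.3.3, edgeR 4.0.16, limma 3.58.1), two-sided, with Benjamini-Hochberg adjustment over 14855 genes and a threshold of 0.05. CPM were counts over library total and TMM factor, and RPKM were CPM per kilobase of the deposited gene length. A positive log2 fold change means higher in CD34- CAFs. The study's methods state no tumor term. Yet the genes it shows as significantly higher in CD34- CAFs far outnumber the 3 called higher here without the block (642 with it). The fit without the block therefore may not repeat the study's own test, and how the 2 differ is not known. The tumor number pairs the libraries because both fractions came from 1 tumor, so block fits are given beside the others. Deviations from the group means correlated at 0.373, 0.350 and 0.219 within tumors 1, 2 and 3 and at -0.214 to -0.0921 between tumors. Deviations in a group add up to 0, so the negative values partly follow from the positive ones. In log2 CPM itself, the CD34- libraries of tumors 1 and 2 were most like the CD34+ library of their own tumor (0.952 and 0.955). That of tumor 3 was not, at 0.837 against 0.843 and 0.849 for the CD34+ libraries of tumors 1 and 2. Libraries of a group differed by more than counting noise. Without the block, p-values rest on the spread among libraries of a fraction, and with it on how alike the differences within tumors were. Both kinds describe these 3 tumors alone.

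Alternatives were edgeR quasi-likelihood, DESeq2 1.42.0, DESeq2 size factors, no low-count filter, sample quality weights, the tumor as a random effect, counts thinned to the smallest total, and leaving out each library or tumor. Named pathway genes were those passing with or without the block and up to 4 of the highest mean CPM per list. Of these, 2 enter the counts but are not reported here on their own. The members and lists were chosen with earlier results of these data known. Promoter windows from RefSeq matched 9 of the 10 members.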

Additional observations from a re-analysis of the deposited data

How the results depend on the processing

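Over 23 alternatives for each of 9 members (12 of them leaving out a library or a tumor), 184 member values kept their direction and their side of the threshold, 11 newly passed it and 12 changed sign. Fgf7 was called in 10 of 23 and in 0 of 9 fits without the block that left something out, where its log2 fold change ran from -1.67 to -1.11. With the block it was called without each tumor in turn, at -1.55 to -1.12. Sign changes were small: Fgf18 was at -0.22 with quality weights and from -0.31 to -0.07 where leaving out libraries turned it (without the CD34- library of tumor 3, the CD34+ library of tumor 2, or tumor 3, for which the block gave -0.26). Fgf2 was at 0.10 without tumor 3 (0.36 with the block), and Fgfr3 at -0.012 with thinned counts (-0.20 with the block) and from -0.31 to -0.04 without the CD34+ library of tumor 3 or without tumor 3 (-0.10 with the block). Over all fits leaving out a library or tumor without the block, values ran from -0.63 to 0.10 for Fgf2, from -0.31 to 0.48 for Fgf18 and from -0.31 to 1.17 for Fgfr3. The cause was not tested.

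Of all genes, limma-voom called 18 without the block (2128 at an unadjusted p under 0.05), edgeR 9, DESeq2 698, quality weights 161 and the random effect 703. The block called 1273 (575 in edgeR, 1733 in DESeq2, 1224 with thinned counts). Leaving out libraries gave 0 to 86 genes without the block (1123 to 2217 at an unadjusted p under 0.05), with 0 without the CD34- library of tumor 3, the CD34+ library of tumor 2, tumor 2 or tumor 3, and with it 1134, 851 and 2019 without tumors 1, 2 and 3. Of the members, 0 were called without the block by limma-voom and 1 by DESeq2, by quality weights, with the block in limma-voom (also thinned, and without any 1 tumor) and edgeR, and with the random effect, while DESeq2 with the block called 2, Fgf7 and Fgf10. Of the other pathway genes, 0 were called without the block, 5 by DESeq2, 13 with the block (9 in edgeR, 17 in DESeq2, 14 with thinned counts) and 8 with the random effect, and leaving out a tumor gave 11 to 14 with the block and 0 to 1 without. The block changed no member's call other than that of Fgf7 in limma-voom. The share of Fgf7 in ligand RPKM was 24.7 percentage points lower in CD34- CAFs (-24.7), and -21.6 over all 18 secreted FGF ligands, an alternative added after seeing the data. Depth limits Fgfr4, which the low-count filter left out; without that filter 0 of 10 members were called.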
